A study of Drosophila melanogaster with 9 samples.

Results

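The tubulin genes expressed in testes of adult Drosophila melanogaster were examined in flies with and without a microRNA cluster. The members are 9 tubulin genes listed by symbol and not by a cut on measured values: betaTub85D, betaTub56D, betaTub60D, alphaTub84B, alphaTub84D, alphaTub85E, alphaTub67C, gammaTub23C and gammaTub37C. They were chosen with earlier results of these data known. The deposited table of 7539 genes held 7 of the 9. The female germline and maternal isotypes alphaTub67C and gammaTub37C had no row and were not analysed here. All genes of the table lay above a log2(RPKM) of 1 in each library (lowest value 1.00), so a gene below that level in any library could not be described. RPKM is a read count scaled to gene length and to library size, so levels can be set side by side between genes. The sorted values of the libraries were also nearly the same (at most 0.044 apart). Sums, shares, ratios and folds given below are those of values in this normalized form.

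RNA-seq was done on testes of flies 3 to 5 days old kept at 25 °C, with 2 libraries labelled Dm310s mutant and 2 labelled Control. Dm310s flies lack the miR-310 cluster, which holds 4 microRNA genes from miR-310 through miR-313. Both lines derive from the P-element stock EP(2)2587, so the controls share that stock's background. Nothing in the labels ties the libraries to separate dissections; the p-values therefore describe the spread between these libraries, and that spread may be technical. The 5 small RNA libraries of the series count microRNAs only and were not used here. Depth is unknown, since the values are normalized and read counts were not used here.

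Microtubules are hollow polymers of alpha and beta tubulin dimers, and gamma tubulin in ring complexes starts their assembly. The Drosophila male germ line uses them for the meiotic spindles and for the long axoneme of the sperm tail. betaTub85D, also called beta2 tubulin, is the testis-specific beta isotype that the postmitotic germ line needs for meiosis, nuclear shaping and axonemes, and alphaTub84B is the main, widely expressed alpha isotype that partners it. betaTub56D is the widely expressed beta1 isotype, and betaTub60D (beta3) is known from muscle, other mesodermal derivatives and somatic cells of the gonad.

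The libraries carried the transcripts of a testis. The 24 measured spermatocyte and spermatid markers, among them Mst87F, dj and twe, had a summed level of 5715 to 6172 RPKM per library. The 4 measured markers of stem cells and spermatogonia summed to 32.0 to 34.7 RPKM and the 4 of cyst and hub cells to 29.5 to 32.6 RPKM. They also carried tissue of the male tract, since 18 measured accessory gland genes summed to 5308 to 6421 RPKM. The somatic cyst cell markers tj, eya and zfh1 had no row. The deleted microRNA hairpins were not analysed here, so the genotype labels were not checked against them. Across genes, which are not replicates of each other, the control libraries had a Pearson correlation of 0.994, the mutant libraries of 0.993, and a mutant with a control library of 0.983 to 0.988.

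betaTub85D and alphaTub84B were the most abundant tubulin transcripts and stood near the top of the whole table. betaTub85D had a log2(RPKM) level of 9.11 and 9.14 in control replicates 1 and 2 and of 9.25 and 9.23 in mutant replicates 1 and 2. On the linear scale these levels were 554, 563, 609 and 602 RPKM in that order. By mean level betaTub85D ranked 48 among 7539 genes, and its rank in single libraries ran from 42 to 51. alphaTub84B had a log2(RPKM) level of 9.05 and 8.98 in the controls and of 9.22 in each mutant library. It ranked 51 by mean level, at 53 and 57 in the controls and at 44 in both mutants. Its equal values in the mutants are equal ranks, because the authors' libraries take nearly the same set of values (83.0% of the 200 highest values were identical across libraries within 1e-06, and sorted columns differed by at most 0.044). betaTub85D was above alphaTub84B in all 4 libraries, by 0.011 to 0.16 on the log2 scale, but their ranges over libraries overlapped.

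alphaTub84D, an alpha isotype whose protein is nearly the same as that of alphaTub84B, had a log2(RPKM) level of 7.00 and 6.97 in control and of 7.11 and 7.08 in mutant libraries. It lay 2.07 below alphaTub84B in the mean, a 4.21-fold gap that ranged from 2.00 to 2.14 over the libraries. The coding sequences of this pair are much alike and the handling of reads that match both is not given in the sources used here, so their split, and to a lesser degree that among the beta isotypes, is uncertain.

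The remaining isotypes lay far lower. betaTub56D had a log2(RPKM) level of 4.73 and 4.47 in control and of 4.48 and 4.55 in mutant libraries. alphaTub85E, an alpha isotype known from the nervous system, muscle and somatic cells of the testis, had values of 4.27 and 4.25 in control and 4.06 and 4.03 in mutant libraries. betaTub60D had values of 4.23 and 3.97 in control and 4.09 and 4.13 in mutant libraries. The levels of alphaTub85E and betaTub60D overlapped and their order changed between libraries, with alphaTub85E higher in 2 of 4. betaTub56D was above alphaTub85E in all 4 libraries, by 0.22 to 0.51 on the log2 scale.

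gammaTub23C, the gamma tubulin of somatic cells and the male germ line, was the least abundant member. Its log2(RPKM) level was 2.59 and 2.65 in control and 2.71 and 2.62 in mutant libraries, and its mean ranked 4775 of 7539. It lay 1.32 to 1.64 below betaTub60D on the log2 scale. Summed RPKM of the measured alpha and beta members was 199 to 227 times that of gammaTub23C.

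**Figure D1:**
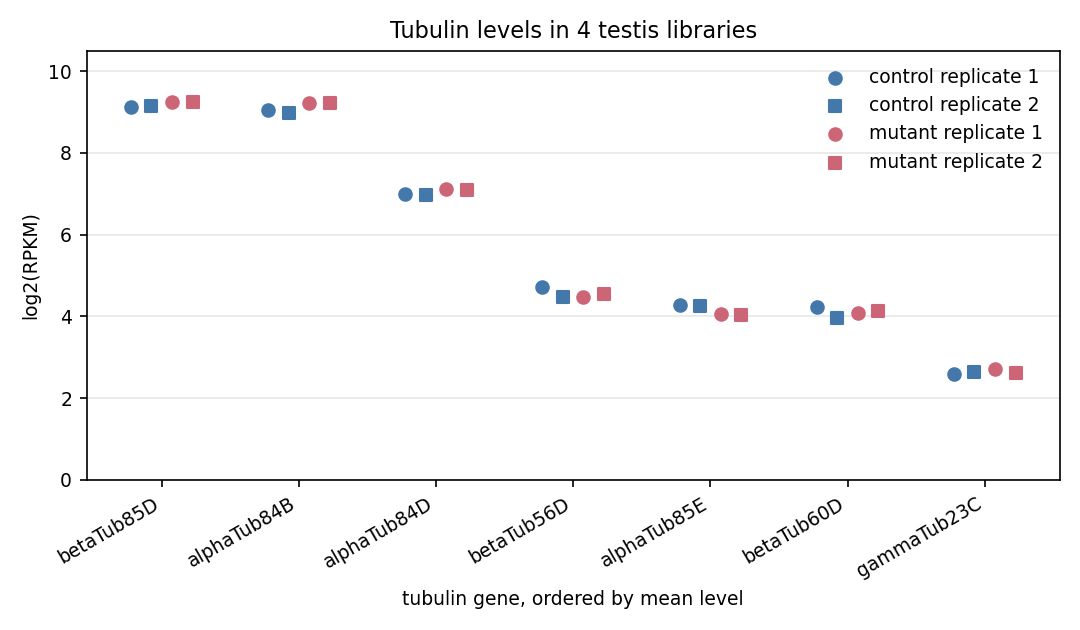
Levels of the 7 measured tubulin genes on the vertical axis, in log2(RPKM), with genes ordered by mean level on the horizontal axis. Each point is 1 library (blue control, red mutant; circles replicate 1, squares replicate 2). betaTub85D and alphaTub84B lie between 8.98 and 9.25, and gammaTub23C between 2.59 and 2.71.

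Among the beta members, betaTub85D made up nearly all of the measured RNA. Its share of the summed RPKM of betaTub85D, betaTub56D and betaTub60D was 92.5% and 93.7% in control and 93.9% and 93.6% in mutant libraries. The mean was 93.1% ± 0.876 (SD, n = 2) in control and 93.8% ± 0.208 (n = 2) in mutant libraries, the groups overlapped, and an exact two-sided permutation test over libraries gave p = 0.667. With 2 libraries against 2, this test cannot go below 0.333. Counting the further beta tubulin gene CG32396 with the beta members, an addition made after its level was seen, the share was 86.1% and 87.2% in control and 88.1% in each mutant library, groups that did not overlap (exact permutation p 0.333). betaTub56D held 3.44% to 4.42% of the beta sum and betaTub60D 2.61% to 3.12%, both with their highest share in control replicate 1.

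Among the alpha members, alphaTub84B held 78.2% and 77.7% of the summed RPKM in control and 79.4% and 79.7% in mutant libraries. alphaTub84D held 19.0% and 19.4% in control and 18.4% and 18.1% in mutant libraries, although its level was higher in both mutant libraries. alphaTub85E held 2.85% and 2.94% in control and 2.21% and 2.18% in mutant libraries. The groups did not overlap for any of these 3 shares, each with an exact permutation p of 0.333, the smallest that 2 against 2 allows. The 3 shares are parts of the same sum in each library, so they are not separate results. Groups of single genes did not overlap for 50.4% of all genes.

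The summed alpha and beta levels were close to each other in every library. Alpha members summed to 677 and 648 RPKM in control and to 752 and 750 RPKM in mutant libraries. Beta members summed to 599.6 and 601 RPKM in control and to 648 and 643 RPKM in mutant libraries. The ratio of alpha to beta was 1.13 and 1.08 in control and 1.16 and 1.17 in mutant libraries. The difference of its log2 was 0.077 (mutant minus control), the groups did not overlap, and the exact permutation p was 0.333. With CG32396 counted among the beta members, the ratio was 1.05 and 1.00 in control and 1.09 and 1.10 in mutant libraries. All 7 members together held 0.499% to 0.509% of the summed RPKM of the table in control and 0.557% to 0.559% in mutant libraries.

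**Figure D2:**
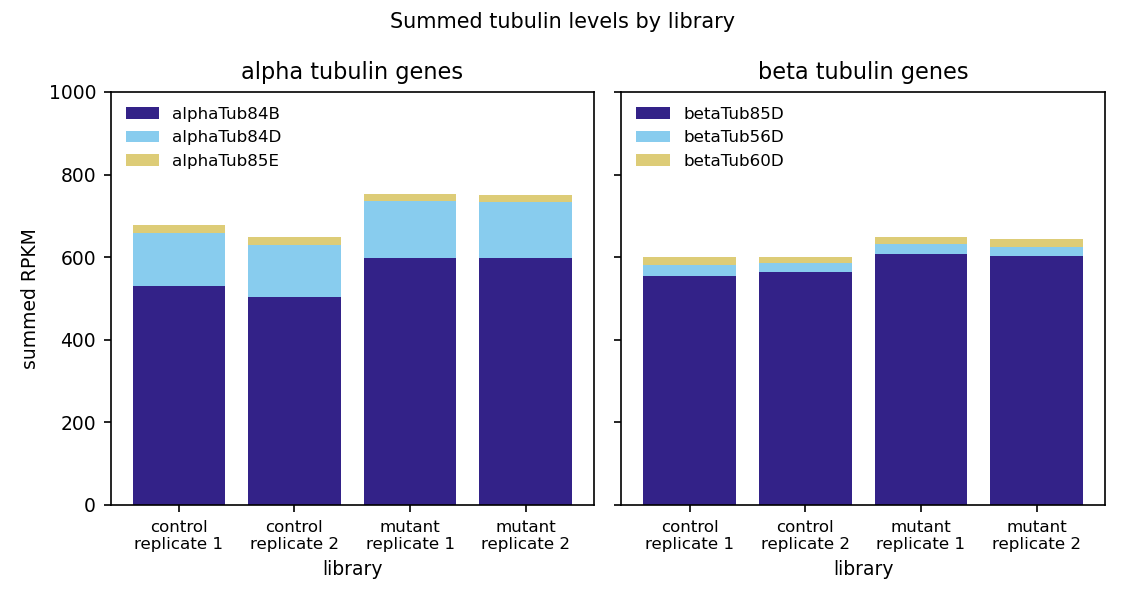
Summed RPKM on the vertical axis, by library on the horizontal axis, for the alpha members (left) and the beta members (right), with each gene as a segment of the bar. alphaTub84B and betaTub85D form most of each bar, alpha sums run from 648 to 752 RPKM, and beta sums run from 599.6 to 648 RPKM.

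Mutant and control testes were compared to ask whether tubulin transcripts differ without the cluster. None of the 7 members passed an adjusted p of 0.05 in limma, which called 1.5% of all genes (113 of 7539, 41 higher and 72 lower in the mutant). That excess of lower calls did not hold without control replicate 1 (14 higher and 8 lower) and was small without control replicate 2 (16 and 18). At an unadjusted p under 0.05 stood 2 of the 7, alphaTub84B and alphaTub85E, against 17.7% of all genes. The groups did not overlap for 4 of the 7 (3 with the mutant higher and 1 with it lower), against 50.4% of all genes, so both shares lay near the background. The median difference of the 7 members was 0.042 on the log2 scale and that of all genes was 0.0045. In size, the smallest difference among the called genes was 0.37, and the largest among the members was that of alphaTub85E (-0.22). Differences as small as those of the members were thus not called for any gene, and the lack of calls does not show equal levels.

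The 3 abundant isotypes had higher levels in both mutant libraries than in either control. alphaTub84B had a mean log2(RPKM) of 9.01 ± 0.05 (SD, n = 2) for the control libraries and of 9.22 ± 0.00 (n = 2) for the mutant libraries. The difference was 0.21 (SE 0.06, unadjusted 95% interval 0.07 to 0.35), or 1.16-fold, which did not pass in limma (adjusted p 0.158). betaTub85D had means of 9.13 ± 0.02 and 9.24 ± 0.01, a difference of 0.12 (SE 0.05, interval -0.02 to 0.25; adjusted p 0.342), or 1.08-fold. alphaTub84D had means of 6.99 ± 0.02 and 7.10 ± 0.02, a difference of 0.11 (SE 0.05, interval -0.02 to 0.24; adjusted p 0.345). The 52 genes with a mean level of 9 or more, betaTub85D and alphaTub84B among them, had a median difference of 0.012 with quartiles of -0.07 and 0.10. The 680 genes with a mean level from 6 to below 9, alphaTub84D among them, had a median of 0.014 with quartiles of -0.07 and 0.09.

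alphaTub85E was the member whose level lay below control in both mutant libraries. Its mean log2(RPKM) was 4.26 ± 0.01 (SD, n = 2) in control and 4.04 ± 0.02 (n = 2) in mutant libraries, a difference of -0.22 (SE 0.06, interval -0.37 to -0.06), which did not pass in limma (adjusted p 0.180). In size, this difference exceeded that of 79.4% of all genes, and the difference of alphaTub84B exceeded that of 78.6%. The level of alphaTub84B relative to alphaTub85E within a library was 4.78 and 4.72 on the log2 scale in control and 5.17 and 5.19 in mutant libraries. These groups did not overlap (exact permutation p 0.333, the smallest possible), and this pair was chosen after the values were seen. Of 5 measured muscle genes, 4 had positive and 1 a negative difference, with a median of 0.085 and none called. The 4 measured cyst and hub genes had 2 positive and 2 negative differences, with a median of 0.039 and none called. Some markers of other tissues differed between the genotypes. Of the 6 measured digestive tract genes, alphaTry and LysD were called higher in limma. Together the 6 summed to 56.3 RPKM in each control and to 137 and 215 RPKM in the mutant libraries. Their differences were 5 positive and 1 negative, largest for alphaTry (4.59) and near 0 for LManII (0.038) and LysE (-0.0027). Adh, the 1 measured fat body gene, whose values are also those of its neighbour Adhr, was called higher too. In the other direction, SP, the sex peptide gene of the accessory gland, was the 1 called gene among 18 of that list. Its log2(RPKM) level was 11.02 and 10.89 in control and 10.12 and 10.29 in mutant libraries (adjusted p 0.0314 in limma). The list as a whole was split, with 10 positive and 8 negative differences and a median of 0.013. Of these 4 called markers, alphaTry was called whichever library was left out. The call was lost without either control replicate for SP (adjusted p 0.118 and 0.0867), and without either control replicate or mutant replicate 2 for LysD (0.148, 0.175 and 0.0622) and Adh (0.0779, 0.115 and 0.0871). The defining fat body gene Lsp2 and the hemocyte gene Hml had no row. The part of these tissues in the tubulin differences was not tested.

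For 3 members the groups overlapped. The difference was -0.09 (SE 0.10, interval -0.34 to 0.16; adjusted p 0.690) for betaTub56D in limma. For betaTub60D it was 0.01 (SE 0.10, interval -0.24 to 0.27; adjusted p 0.963), and for gammaTub23C it was 0.04 (SE 0.08, interval -0.17 to 0.26; adjusted p 0.835). These p-values do not show that the levels are equal: the interval of betaTub56D reaches -0.34 on the log2 scale. The sign of each of these 3 turned when a single library was left out: to 0.04 for betaTub56D without control replicate 1, to -0.11 and -0.01 for betaTub60D without control replicate 2 or mutant replicate 2, and to -0.0011 for gammaTub23C without mutant replicate 1. In bulk tissue, fewer cells of a type and less RNA per cell cannot be told apart.

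**Figure D3:**
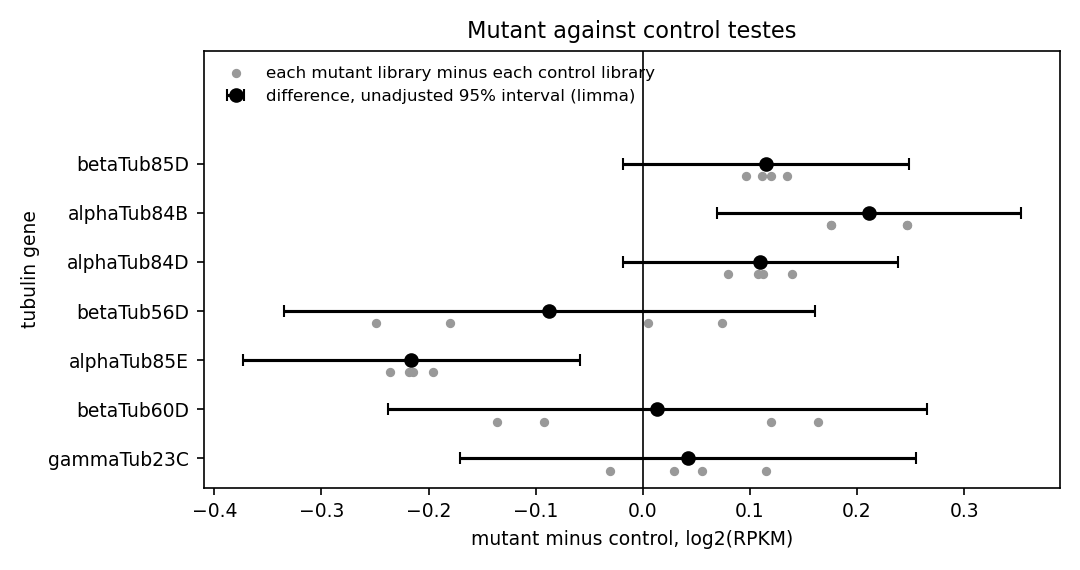
Mutant minus control difference on the horizontal axis, in log2(RPKM), for the 7 measured tubulin genes on the vertical axis. Black points and bars give the limma difference and its unadjusted 95% interval, and grey points give each mutant library minus each control library. The intervals of alphaTub84B (0.07 to 0.35) and alphaTub85E (-0.37 to -0.06) lie on 1 side of 0, and no member passed the adjusted threshold.

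The widest spread between libraries of a group was that of betaTub56D and betaTub60D in control. betaTub56D was lower by -0.25 in control replicate 2 than in replicate 1, and betaTub60D by -0.26, against a median absolute difference between the controls of 0.086 over all genes. A drop at least as large was seen in 5.46% and 5.37% of genes. Markers of other tissues differed between the same libraries. All 4 measured ejaculatory duct and bulb genes were higher in control replicate 1 than in replicate 2, as were 46.4% of all genes. The summed level of these 4 was 678 and 341 RPKM in control and 423 and 524 RPKM in mutant libraries. Other lists were mixed: 1 of 4 cyst and hub, 8 of 18 accessory gland and 3 of 6 digestive tract genes were higher in control replicate 1. So were 2 of 4 stem cell and spermatogonia genes, 14 of 24 spermatocyte and spermatid genes, and the 1 measured gene each of fat body and hemocytes. Peb, an ejaculatory bulb protein gene, had a log2(RPKM) level of 5.55 and 2.23 in control replicates 1 and 2 and of 1.79 and 1.03 in mutant replicates 1 and 2. Est-6, an esterase of the ejaculatory duct, stood at 7.57, 6.48, 7.30 and 7.90 in that order.

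Muscle markers gave a mixed picture beside these beta isotypes. Of 5 measured muscle genes, 4 were higher in control replicate 1 than in replicate 2 and 4 were higher in mutant replicate 2 than in replicate 1, which also held for betaTub56D and betaTub60D. Over all genes, 41.8% were higher in mutant replicate 2 than in replicate 1, and so were 16 of 18 accessory gland genes and all 6 measured digestive tract genes. The muscle actin gene Act57B had a log2(RPKM) level of 4.62 and 4.28 in control and of 4.39 and 4.69 in mutant libraries. The summed level of the 5 genes, most of it Act87E, was 162 and 158 RPKM in control and 165 and 163 RPKM in mutant libraries. The muscle myosin heavy chain gene Mhc had no row. Whether tract or muscle tissue had a part in the spread of betaTub56D and betaTub60D was not tested.

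**Figure D4:**
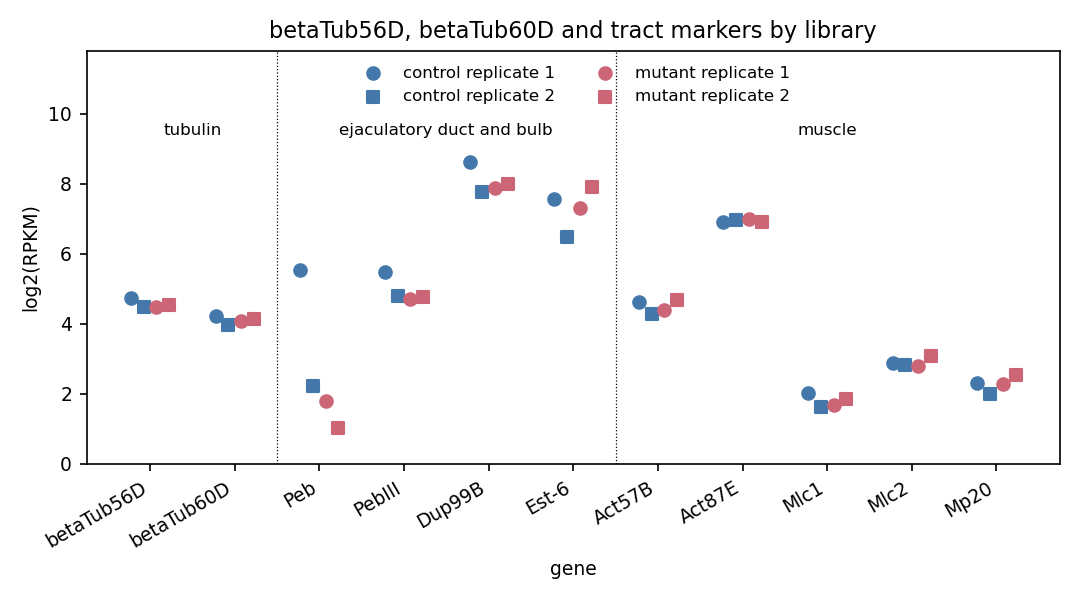
Level on the vertical axis, in log2(RPKM), of betaTub56D, betaTub60D, the 4 measured ejaculatory duct and bulb genes and the 5 measured muscle genes. Each point is 1 library (blue control, red mutant; circles replicate 1, squares replicate 2). Control replicate 1 lies above control replicate 2 for both tubulin genes, for all 4 duct and bulb genes and for 4 of the 5 muscle genes.

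CG32396, a beta tubulin gene also named betaTub65B, was the only further tubulin among those looked for that the table held. Its log2(RPKM) level was 5.46 and 5.49 in control and 5.41 and 5.34 in mutant libraries, above that of betaTub56D in all 4. The groups did not overlap, and the difference of -0.10 (SE 0.06) did not pass in limma (adjusted p 0.421).

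Other microtubule genes were counted from 7 lists, CG32396 among them. Of 89 measured genes none passed in limma (0 higher and 0 lower). At an unadjusted p under 0.05 stood 10, against 17.7% of all genes, and 44 (49.4%) had groups that did not overlap, against 50.4% of all genes. Their median difference was 0.034. For the directions given by list below, 50.2% to 54.7% of all genes had a positive difference, depending on mean level.

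The gamma tubulin ring complex, which nucleates microtubules with gammaTub23C, was represented by 8 genes with a median difference of -0.0010, 4 positive and 4 negative. The testis forms CG7716 (t-Grip84) and CG18109 (t-Grip91) had mean log2(RPKM) levels of 5.20 and 4.07 in control, while general Grip91 stood at 1.82 and 1.60 in the control libraries and Grip84 at 1.37 and 1.35. The third testis form, CG32232 (t-Grip128), stood at 2.21 and 2.20 in control, above general Grip128 at 1.39 and 1.37. CG18109 had the smallest adjusted p of the list, with a difference of -0.11 (adjusted p 0.471). Differences of Grip91, Grip71 and Grip128 were 0.14, -0.12 and -0.11.

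Genes of tubulin folding comprised the CCT chaperonin, which folds actin and tubulin, and the cofactors that join alpha and beta into dimers. Of 13 measured, 11 had positive and 2 negative differences, with a median of 0.056 and none called. The groups did not overlap for 4 of these 13 genes, against 50.4% of all genes. Mean levels of the 13 ran from 2.48 to 5.06 on the log2(RPKM) scale. Of all genes with a mean level from 1 to 3, 50.2% had a positive difference, and of those from 3 to 6, 51.8%. The cofactor C gene CG31961 (Tbcc) differed by 0.21 (adjusted p 0.285 in limma), TBCB by 0.17, and the chaperonin genes Tcp-1eta and CG8258 by 0.11 and 0.08.

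Enzymes that modify tubulin had the highest median of the lists with more than 1 gene, 0.095, with 9 of 14 positive and none called. TTLL enzymes add glutamate or glycine chains to tubulin, NnaD belongs to the carboxypeptidases that trim glutamate, and Atat (CG3967) acetylates alpha tubulin. CG4089 (TTLL15) had a log2(RPKM) level of 1.06 and 1.28 in control and of 1.65 and 1.58 in mutant libraries (adjusted p 0.134 in limma). NnaD went from 3.33 and 3.44 to 3.70 and 3.68 (adjusted p 0.140). Atat differed by 0.15 and CG16716 (TTLL6A) by -0.13. The groups did not overlap for 11 of these 14 genes, against 50.4% of all genes, and 4 of the 14 had an unadjusted p under 0.05, against 17.7%.

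Axonemal dyneins and flagellar proteins, which are built onto the betaTub85D microtubules of the sperm tail, numbered 14, with a median of 0.056, 9 positive and none called. The listed genes Dhc93AB, kl-2, kl-3, kl-5, ORY, CCY and Dnai2 had no row. CG3085 had a log2(RPKM) level of 6.10 and 6.17 in control and of 6.33 and 6.37 in mutant libraries (adjusted p 0.144 in limma). The dynein heavy chain gene Dhc98D went from 2.00 and 2.13 to 1.85 and 1.67 (adjusted p 0.247). The dynein light chain gene robl22E differed by -0.22, and CG17083 (wam) by 0.13.

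Centriole and basal body genes numbered 13, with a median of -0.019, 5 positive and none called. Poc1, a centriole protein gene, went from a log2(RPKM) of 5.17 and 5.13 to 5.32 and 5.38 (adjusted p 0.180 in limma). The centrosome scaffold gene cnn differed by 0.16, the centriole gene asl by -0.10 and the basal body gene unc by -0.12. Microtubule-associated proteins and kinesins numbered 26, with a median of 0.031, 17 positive and none called. The minus-end directed kinesin gene ncd went from 3.05 and 2.99 to 2.64 and 2.53 (adjusted p 0.0908), and the kinesin light chain gene Klc from 2.14 and 1.97 to 2.41 and 2.37 (adjusted p 0.187). The kinetochore kinesin gene cmet differed by -0.28. The list also holds fzo, which encodes a mitochondrial fusion protein of spermatids and no microtubule protein, at 0.17.

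**Figure D5:**
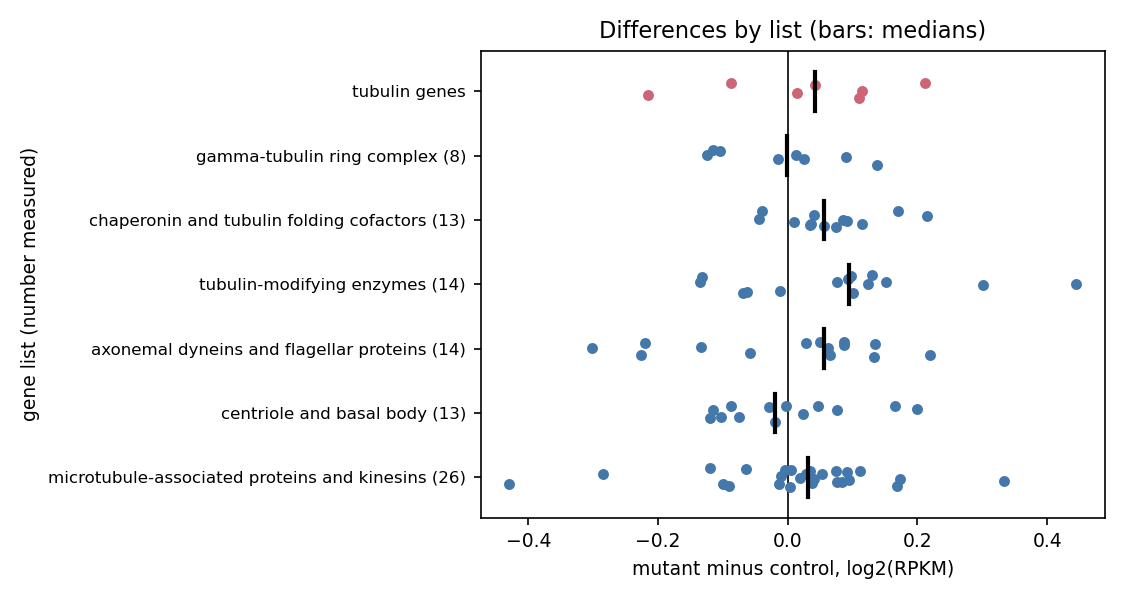
Mutant minus control difference on the horizontal axis, in log2(RPKM), for the 7 tubulin genes (red) and for 6 lists of microtubule genes (blue), with 1 point per gene, small vertical offsets for visibility and a vertical bar at each median. Medians lie between -0.019 and 0.095, and no gene shown passed the adjusted threshold.

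None of the 7 tubulin genes was marked as a predicted target of either miR-313 arm (miR-313-3p, miR-313-5p) by TargetScan, while 684 of 7539 genes were marked for at least 1 arm. With 7 genes, no marks are too few to set against that share. Marks were given for miR-313 only, so predicted targets of the other microRNAs of the cluster are not covered. None of the 7 tubulin genes had a profile identical to that of another gene. By Euclidean distance over the 4 log2(RPKM) values, a measure that level dominates, the gene nearest to betaTub85D was Mst77F, a sperm chromatin protein gene (distance 0.0715). Next came CG4691 (0.146), w-cup, a gene transcribed after meiosis (0.158), the polyubiquitin gene Ubi-p63E (0.172) and alphaTub84B (0.178). betaTub85D was in turn the gene nearest to alphaTub84B. With 4 libraries, this is a description of level only.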

How the data were processed

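RNA-seq values of 2 mutant and 2 control testis libraries were used. Values are log2(RPKM) by gene as deposited, according to the series text and per the file headers, with marks for TargetScan predicted targets. The submitters' processing notes name TopHat. Its version, the counter, strand use (antisense partners may share reads) and the genome build were not stated in any source read here, so no coordinates or sequences are given. Nearly identical sorted columns are the pattern that quantile normalization leaves, and spreads between libraries reflect it.

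All 7539 genes were fitted together with limma 3.58.1 in R 4.3.3 (group only, eBayes with trend, prior degrees of freedom 3.46; no pseudocount; a minimum mean log2(RPKM) of 0 removed none), with Benjamini-Hochberg adjustment over all genes and a threshold of 0.05. The script was tested on simulated data. Within-library sums were compared by exact permutation (scipy 1.17.1). The name table held 7408 of the IDs.

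Named were all measured members, up to 4 genes per list with the smallest adjusted p, and the 5 nearest profiles; the testis forms of the ring complex with their general counterparts, and single markers, were named after their values were seen. The members and lists were chosen with earlier results of these data known. Alternatives were no trend, robust priors, a filter at 3, a pseudocount of 1, median centring, quantile normalization, a replicate block and leaving out each library.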

Additional observations from a re-analysis of the deposited data

How the results depend on the processing

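None of the 7 tubulin genes and none of the 89 listed microtubule genes was called in limma fits with no trend, robust priors, a pseudocount, median centring, quantile normalization or the block. The filter tested 6 of the 7 and 56 of the 89 and called none of them. Fits with 1 library left out also called none, but there the spread comes from the other group alone and the lone library is assumed to vary like it, so the absence of calls says little about stability. The count of called genes over the table was 113 in the fit reported, 50 among genes with a mean log2(RPKM) of at least 3, and 22 to 99 when 1 library was left out. With the replicate number as a block it was 238, with 0 tubulin genes among them; the labels do not tie same-numbered libraries together and their deviations correlated at 0.060, so they share only a number.

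Differences of betaTub85D (0.10 to 0.13), alphaTub84B (0.18 to 0.25), alphaTub84D (0.09 to 0.13) and alphaTub85E (-0.23 to -0.20) kept their sign under all alternatives. Leaving out 1 library could not turn these signs, because the groups of these genes did not overlap. Fits with no trend, robust priors, the filter or the block return the same difference. Quantile normalization could change little, because the sorted values of the libraries were already nearly the same. The kept signs therefore say little about stability. In limma fits with all 4 libraries, the lowest adjusted p of these genes was 0.301, 0.140, 0.317 and 0.162. Leaving out 1 library gave -0.21 to 0.0394 for betaTub56D, -0.1141 to 0.14 for betaTub60D (-0.008 without mutant replicate 2) and -0.0011 to 0.0854 for gammaTub23C; the filter left gammaTub23C out. Of 266 alternative values for the 25 other named genes, 0 changed sign. Apart from CG32396, these genes were named for the smallest adjusted p of their lists, so this too says little about stability. The mutant-minus-control difference in the betaTub85D share of beta was 0.703 percentage points and 0.0838 to 1.32 with 1 library left out, lowest without control replicate 1, and 1.48 with CG32396 counted among the beta members; that in the log2 alpha to beta ratio was 0.044 to 0.11, lowest without control replicate 2. Depth is unknown, so counting error could not be given.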
